A study of Bos indicus with 5 samples.

Results

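Collagen alpha chains were followed in RNA sequencing libraries of the ampulla, the ovarian end of the oviduct, from Nelore (Bos indicus) cows. The chains were chosen by symbol alone, as every gene whose symbol has the form COL, a number, A and a number, which gave 43 of the 24616 genes in the table. Of these, 36 had a mean normalized read count over 5 and were tested among the 15815 genes of the table above that minimum.

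The table held 5 libraries, each from a different healthy multiparous cow, 2 from the large follicle, large corpus luteum group (LF/LCL) and 3 from the small follicle, small corpus luteum group (SF/SCL). All cows received an intravaginal device with 1 g of progesterone on day -10, together with an injection of 2 mg of estradiol benzoate. In LF/LCL 42 h passed from removal of the device to the GnRH injection of day 0, and in SF/SCL 30 h. A 0.5 mg dose of a prostaglandin F2alpha analog was given at removal and again 6 h later, and the LF/LCL cows also received the analog at device insertion. Tissue of the full oviduct wall was collected on day 4 on the side of the ovulation, so each library mixes epithelium, stroma, muscle and vessels. The study ranked its cows by ovarian and hormone variables before choosing those to sequence, so the libraries stand for chosen animals, and it discarded a further LF/LCL library with few reads.

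Collagens are built from alpha chains that wind in groups of 3 into a triple helix. Fibrillar collagens form the banded fibrils of connective tissue, type IV collagen forms the sheet of basement membranes, and type VI collagen forms beaded filaments between them. The FACIT collagens (fibril-associated collagens with interrupted triple helices) bind to fibrils, multiplexins lie at the edge of basement membranes, and the transmembrane collagens are held in the cell membrane. In the oviduct these chains belong to the stroma, the muscle layer, the vessel walls and the basement membrane under the epithelium. The most familiar chains pair in fixed proportions, such as COL1A1 with COL1A2 and COL4A1 with COL4A2.

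Most tested chains had higher mean values in LF/LCL than in SF/SCL, and none of these differences passed the adjusted test. The difference was higher in LF/LCL for 25 chains and lower for 11, with a median log2 difference of 0.53, beside a median of 0.01 and 50.7% of genes higher over all genes tested. All differences here are LF/LCL over SF/SCL on the log2(value + 1) scale, which can understate or overstate the change of genes with few reads. With limma and Benjamini-Hochberg adjustment over all genes tested, 0 of the 36 chains passed an adjusted p of 0.05, and 0% of all genes tested did. The smallest adjusted p among the chains was 0.248. At an unadjusted p under 0.05 limma called 3 chains higher (COL4A1, COL4A2 and COL11A2), where 5.64% of all genes were called higher, and 3 lower (COL27A1, COL19A1 and COL4A5), where 5.86% were called lower. With recovered reads, the quasi-likelihood test of edgeR also called 0 chains after adjustment, and 10 of 36 at an unadjusted p under 0.05, where it called 11.6% of all genes. DESeq2 called 4 chains after adjustment. COL4A1 and COL4A2 were higher, among 1.38% of all genes called higher, and COL27A1 and COL19A1 were lower, among 1.50% called lower. COL19A1, which also gave the smallest limma adjusted p, passed the minimum mean only through SF/SCL, so its calls are not read as a result. These DESeq2 calls depend on single libraries. Without LF/LCL replicate 1, DESeq2 called 0 chains and 1.67% of all genes. Without SF/SCL replicate 3 it called 0 chains and 1.83% of all genes, and without LF/LCL replicate 2 it called 11 chains and 2.16% of all genes.

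The groups did not overlap for 11 chains. COL1A1, COL5A2, COL11A2, COL4A1, COL4A2, COL8A1 and COL14A1 were higher in both LF/LCL libraries than in any SF/SCL library, 7 of 36, where 15.0% of all genes tested were. COL27A1, COL4A5, COL19A1 and COL17A1 were lower in both, 4 of 36, where 15.1% of all genes were. Neither share of the chains is far from that background, so these counts are not a result about the chains. For a single value, 2 against 3 libraries cannot give a two-sided exact permutation p below 0.2.

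The 2 LF/LCL libraries were unlike each other. LF/LCL replicate 1 held the highest value of the 5 libraries for 21 of 36 chains, 58.3%, beside 21.9% over all genes tested. In 16 chains, 44.4%, it exceeded every other library by at least 1.5 times, a margin chosen after the values were seen, beside 3.44% of all genes. Against the mean of the SF/SCL libraries the median chain of LF/LCL replicate 1 was 0.90 higher on the log2 scale, and the median chain of LF/LCL replicate 2 was 0.12 higher. SF/SCL replicate 2 held the lowest value for 15 chains, 41.7%, beside 18.8% of all genes. The median difference of the 36 chains was 0.12 without LF/LCL replicate 1 and 0.90 without LF/LCL replicate 2. The counts of higher chains changed less than this median: without LF/LCL replicate 1, 22 chains were higher and 14 lower.

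**Figure D1:**
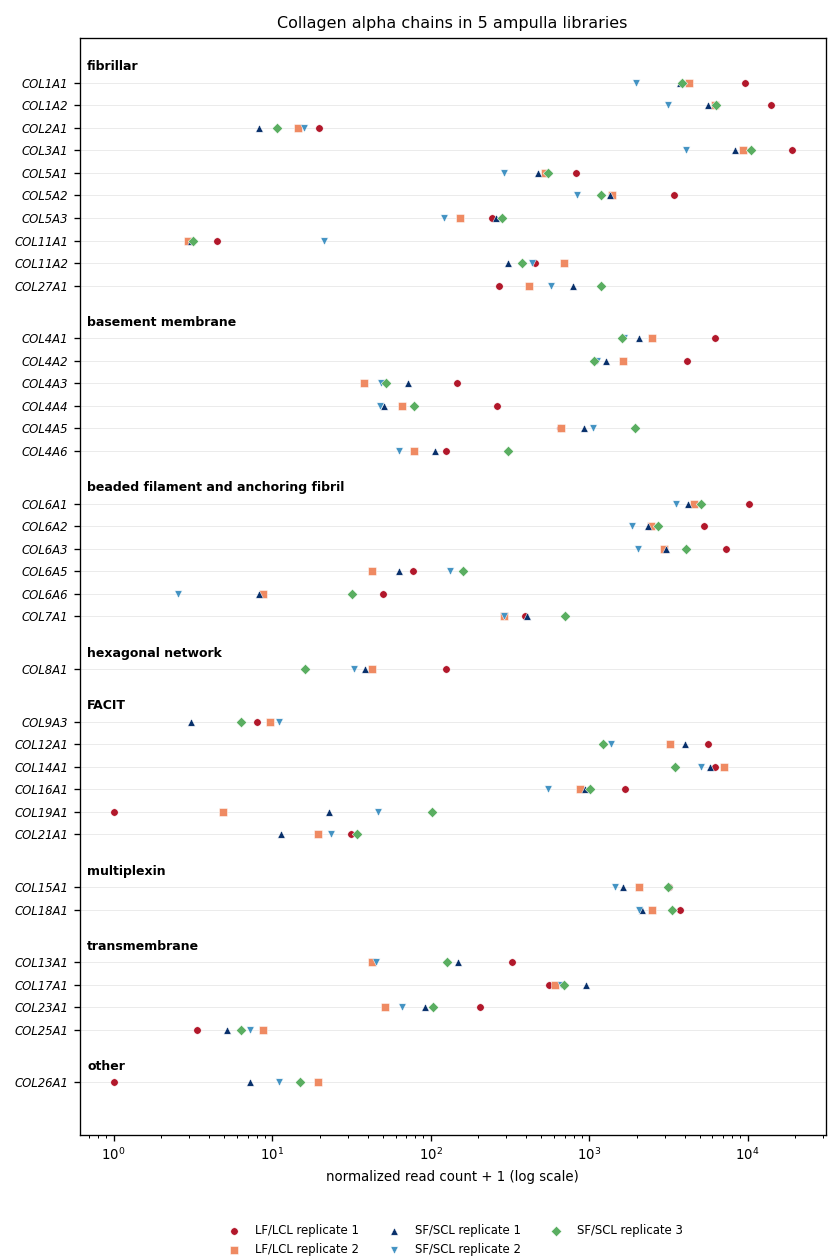
Normalized read count plus 1 on a log axis for the 36 tested chains, by collagen class, with 1 point for each of the 5 libraries. LF/LCL replicate 1 (red circles) lies farthest right for 21 chains, among them COL1A1, COL4A1 and COL6A1, and lies farthest left for COL27A1 and COL19A1.

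Reads of all 43 chains summed to 104615 in LF/LCL replicate 1 and 54856 in LF/LCL replicate 2, after the authors' normalization. The sums were 51314, 34731 and 55297 in SF/SCL replicates 1, 2 and 3. LF/LCL replicate 1 stood alone, while LF/LCL replicate 2 lay within the range of the SF/SCL libraries. The group means were 79736 ± 35184.5 (SD, n = 2) and 47114 ± 10907 (SD, n = 3), a ratio of 1.69. Before normalization the chains took 0.508% ± 0.222 (SD, n = 2) of the assigned reads in LF/LCL, compared with 0.308% ± 0.07 (SD, n = 3) for SF/SCL. The smallest library, LF/LCL replicate 1, had 13418278 assigned reads and the largest, SF/SCL replicate 2, had 19592174, and reads of different genes share the same library, so chains are not replicates.

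Among the 10 fibrillar chains, all of which were tested, 7 were higher in LF/LCL and 3 lower, with a median log2 difference of 0.63, or 0.35 without LF/LCL replicate 1. COL1A1, the alpha 1 chain of type I collagen, the main fibril collagen, had normalized read counts of 9657 and 4235 in LF/LCL replicates 1 and 2 and of 3731, 1986 and 3858 in SF/SCL replicates 1 to 3. Both LF/LCL libraries lay above all SF/SCL libraries, the second by a narrow margin, and the log2 difference was 1.06 ± 0.44 (SE, limma adjusted p = 0.449). COL1A2, its partner chain, had 14132 and 6182 in LF/LCL against 5602, 3136 and 6279 in SF/SCL. Here LF/LCL replicate 2 fell just under SF/SCL replicate 3, so the groups overlapped (0.96 ± 0.44, limma adjusted p = 0.477). COL3A1, whose homotrimer lies in the same fibrils as type I, had 18959 and 9389.9 in LF/LCL against 8363, 4107 and 10425 in SF/SCL. It showed the same order of libraries, with a difference of 0.91 ± 0.48 (limma adjusted p = 0.528).

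The type V chains, which set the start and the width of fibrils, shared this order only in part. COL5A2 had 3416 and 1398 in LF/LCL against 1359, 842 and 1188 in SF/SCL, without overlap (0.98 ± 0.41, limma adjusted p = 0.449). COL5A1 had 827 and 524 in LF/LCL against 474, 288 and 552 in SF/SCL, with overlap and a difference of 0.64 ± 0.33. COL5A3 differed least of all fibrillar chains, by -0.09 ± 0.43, with values from 119.7 to 281. SF/SCL replicate 2 was the lowest library for each of the 3 type V chains.

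The remaining fibrillar chains went different ways. COL11A2, a chain of type XI collagen, a cartilage collagen also found at low levels elsewhere, had 456 and 694 in LF/LCL against 305, 434 and 375 in SF/SCL. It and COL14A1 were the non-overlapping higher chains whose highest value lay in LF/LCL replicate 2 (0.62 ± 0.24, limma adjusted p = 0.417). Its partner COL11A1 was near the detection limit, at 1.94 to 3.52 in 4 libraries and 20.2 in SF/SCL replicate 2. COL11A1 thus passed the minimum mean only through SF/SCL. COL27A1, a fibrillar chain with a shortened helix best known from cartilage, ran against its class. It had 267 and 413 in LF/LCL against 786, 571 and 1190.2 in SF/SCL, so that the library with the most type I reads held the fewest COL27A1 reads. The difference was -1.28 ± 0.34 (limma adjusted p = 0.307, DESeq2 adjusted p = 0.0197). The limma difference stayed between -1.60 and -0.97 when any 1 library was left out. The DESeq2 call was less stable. Its adjusted p was 0.057, 0.000994 and 0.0981 without SF/SCL replicate 1, 2 and 3. COL2A1, the cartilage fibril chain, was low in every library, from 7.28 to 18.8.

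Of the 6 basement membrane chains, all of type IV, 4 were higher in LF/LCL and 2 lower. The 3 pairs compared here, COL4A1 with COL4A2, COL4A3 with COL4A4 and COL4A5 with COL4A6, behaved differently. COL4A1 had 6238 and 2508 in LF/LCL against 2050.3, 1659 and 1601 in SF/SCL. COL4A2, which joins COL4A1 in the helix found in nearly all basement membranes, had 4154 and 1633 in LF/LCL against 1283, 1113 and 1069 in SF/SCL. Both lay without overlap in the same order, with differences of 1.17 ± 0.38 and 1.18 ± 0.38 (limma adjusted p = 0.362 for each). DESeq2 gave 1.31 ± 0.37 for COL4A1 (adjusted p = 0.022) and 1.33 ± 0.38 for COL4A2 (adjusted p = 0.021). Without LF/LCL replicate 1 the limma differences of COL4A1 and COL4A2 were 0.51 and 0.50.

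COL4A3 and COL4A4, known from the glomerular membrane of the kidney, were far lower in reads and highest in LF/LCL replicate 1. COL4A4 had 263 and 64.9 in LF/LCL against 49.9, 46.6 and 77.3 in SF/SCL (1.20 ± 0.62, limma adjusted p = 0.52), and COL4A3 had 145 and 36.8 in LF/LCL against 70.7, 47.4 and 51.5 in SF/SCL (0.39 ± 0.60). In both, 1 library carried the difference. COL4A5 and COL4A6, which form the helix found under many epithelia and around smooth muscle, were lower in LF/LCL. COL4A5 had 658 and 667 in LF/LCL against 923, 1052 and 1956 in SF/SCL, without overlap. The 2 LF/LCL libraries were nearly equal for COL4A5, unlike for COL4A1, and its difference was -0.90 ± 0.32 (limma adjusted p = 0.387), or -0.57 without SF/SCL replicate 3. COL4A6 overlapped between groups, at 123 and 77.4 in LF/LCL against 105, 62.2 and 306 in SF/SCL (-0.37 ± 0.68). The median of this class, 0.78, became -0.20 without LF/LCL replicate 1.

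**Figure D2:**
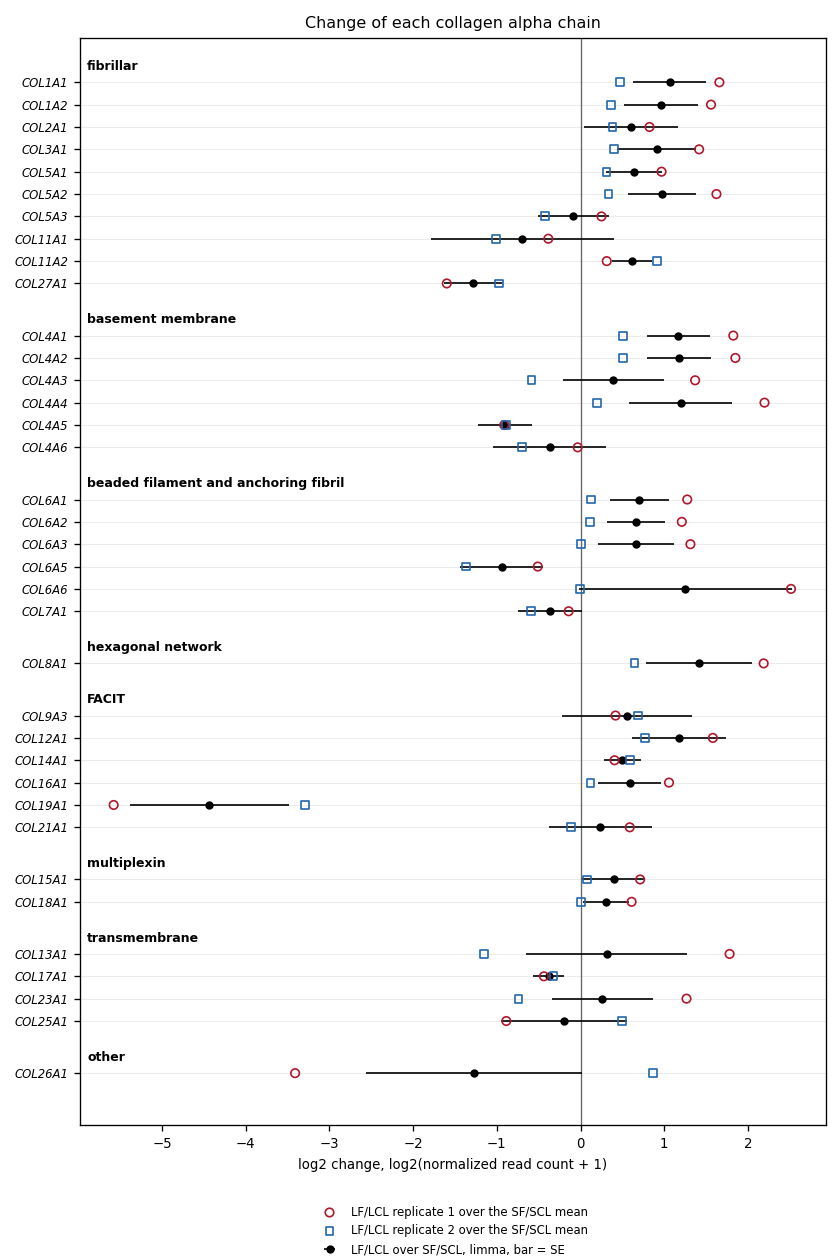
Log2 difference of each tested chain between LF/LCL and SF/SCL (black points, limma, bars are SE) with LF/LCL replicate 1 (red circles) and LF/LCL replicate 2 (blue squares) shown apart, each over the mean of the 3 SF/SCL libraries. For COL4A1, COL6A1 and COL1A1 the red circle lies well to the right of the blue square, whereas both lie left of 0 for COL27A1, COL4A5, COL19A1 and COL17A1.

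The beaded filament and anchoring fibril class had 6 tested chains, 4 higher in LF/LCL and 2 lower, with a median of 0.66, or 0.001 without LF/LCL replicate 1. The chains of the main type VI helix, COL6A1, COL6A2 and COL6A3, were high in LF/LCL replicate 1 and alike elsewhere. COL6A1 had 10217 and 4611 in LF/LCL against 4220.1, 3514 and 5076 in SF/SCL (0.70 ± 0.35, limma adjusted p = 0.511). COL6A2 had 5282 and 2469 in LF/LCL against 2356, 1851 and 2726 in SF/SCL (0.66 ± 0.34, limma adjusted p = 0.526). COL6A3 had 7297 and 2956 in LF/LCL against 3048, 2045 and 4061 in SF/SCL (0.66 ± 0.45, limma adjusted p = 0.631). In all 3, LF/LCL replicate 2 lay inside the SF/SCL range, and without LF/LCL replicate 1 their differences were 0.13, 0.11 and 0.01.

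COL6A5 and COL6A6 are type VI chains that can stand in for COL6A3. COL6A5 had 76.2 and 41.6 in LF/LCL against 62.4, 131 and 159 in SF/SCL, so its highest values lay in SF/SCL (-0.94 ± 0.50, limma adjusted p = 0.527). COL6A6 had 49.3 and 7.74 in LF/LCL against 7.28, 1.55 and 31.1 in SF/SCL, a spread too wide to place (1.25 ± 1.27). COL7A1, the anchoring fibril chain that ties an epithelial basement membrane to the stroma, had 394 and 287 in LF/LCL against 404, 289.9 and 702 in SF/SCL (-0.37 ± 0.38). SF/SCL replicate 3 alone was high for COL7A1.

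The only hexagonal network chain above the minimum was COL8A1, a short chain of vessel walls and of the membrane behind the cornea. It had 123 and 41.6 in LF/LCL against 37.4, 31.9 and 15.0 in SF/SCL, without overlap (1.42 ± 0.63, limma adjusted p = 0.464). LF/LCL replicate 2 exceeded SF/SCL replicate 1 by little, and the difference without LF/LCL replicate 1 was 0.65.

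Among the 6 tested FACIT chains 5 were higher in LF/LCL and 1 lower, with a median of 0.53. COL12A1, which binds type I fibrils and is common in tissue under load, had 5643 and 3214 in LF/LCL against 4036, 1365 and 1216 in SF/SCL. SF/SCL replicate 1 lay between the LF/LCL libraries, so that the split ran across the groups (1.17 ± 0.56, limma adjusted p = 0.495). COL14A1, a related fibril-binding chain, had 6204 and 7052 in LF/LCL against 5799, 5062 and 3495 in SF/SCL. It was the most even of the 7 non-overlapping higher chains, with a difference of 0.50 ± 0.22 (limma adjusted p = 0.468) that was 0.59 without LF/LCL replicate 1 and 0.29 without SF/SCL replicate 3. COL16A1, found near fibrils and at the basement membrane zone, had 1676 and 875 in LF/LCL against 938, 548 and 1015 in SF/SCL (0.59 ± 0.37, limma adjusted p = 0.602). Without LF/LCL replicate 1 the COL16A1 difference was 0.12.

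COL19A1, a rare FACIT-like chain of basement membrane zones, had the largest difference of the tested chains. It passed the minimum mean of 5 only through SF/SCL, so its difference and its calls are not read as a result. It was at 0 in LF/LCL replicate 1 and 3.87 in LF/LCL replicate 2, and at 21.8, 45.9 and 100.9 in SF/SCL. These values rest on 0 and 4 reads in LF/LCL and on 21, 59 and 94 reads in SF/SCL. In LF/LCL replicate 1 a count of 0 allows up to 3 reads, a normalized value of 3.52, by counting error alone. The limma difference of COL19A1 was -4.44 ± 0.95 with an adjusted p of 0.248, the smallest among the chains, and DESeq2 gave -4.78 ± 1.15 (adjusted p = 0.00328). COL19A1 was not among the genes kept when the mean also had to exceed the standard deviation or had to be over 50. The 3 SF/SCL libraries differed 4.62-fold among themselves. The other tested FACIT chains, COL9A3 and COL21A1, had values under 34 in every library.

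The multiplexins differed little. COL15A1, a chain of the outer face of basement membranes, had 3195 and 2059 in LF/LCL against 1633, 1451 and 3129 in SF/SCL (0.40 ± 0.37, limma adjusted p = 0.741). COL18A1, the source of the fragment endostatin, had 3755 and 2476 in LF/LCL against 2149, 2070.4 and 3347 in SF/SCL (0.31 ± 0.27, limma adjusted p = 0.721). For both chains LF/LCL replicate 1 and SF/SCL replicate 3, from different groups, held the highest values.

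The 4 transmembrane chains split evenly, with a median of 0.03, or -0.53 without LF/LCL replicate 1. COL13A1, found at neuromuscular junctions and other cell contacts, had 325 and 41.6 in LF/LCL against 148, 44.3 and 126 in SF/SCL. Its 2 LF/LCL libraries were the highest and the lowest of all 5 (0.31 ± 0.96, limma adjusted p = 0.935). COL23A1 showed the same order at its ends, with 205 and 50.3 in LF/LCL against 91.5, 65.3 and 102 in SF/SCL (0.26 ± 0.60, limma adjusted p = 0.911). The sign of both differences turned without LF/LCL replicate 1, to -1.15 and -0.74, and that of COL13A1 also without SF/SCL replicate 2, to -0.22. COL17A1, a part of the hemidesmosomes that hold epithelial cells to the basement membrane, varied less. It had 561 and 607 in LF/LCL against 961, 661 and 689 in SF/SCL, without overlap (-0.38 ± 0.19, limma adjusted p = 0.5). COL25A1 was low in every library, from 2.35 to 7.74. COL26A1, placed outside these classes, was at 0 in LF/LCL replicate 1 and 18.4 in LF/LCL replicate 2, against 6.24, 10.1 and 14.0 in SF/SCL (-1.27 ± 1.29, limma adjusted p = 0.762). Its LF/LCL values were the lowest and the highest, and the difference was 0.87 without LF/LCL replicate 1. DESeq2 gave only -0.119 ± 1.505 for COL26A1 over all 5 libraries.

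The 7 chains under the minimum were COL28A1, COL8A2, COL10A1, COL9A1, COL9A2, COL20A1 and COL22A1, with 0 to 18 reads each over the 5 libraries. COL9A1 had 0 reads in every library, which allows up to 3 reads in each. The highest value among these 7 chains was 10.7, for COL20A1 in SF/SCL replicate 3. Without the minimum, limma tested 6 of them, 3 higher and 3 lower, and 0 had an unadjusted p under 0.05 (smallest limma adjusted p = 0.755). At this depth no difference was detectable in them.

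The 11 chains lower in LF/LCL were COL27A1, COL19A1, COL4A5, COL4A6, COL6A5, COL7A1, COL17A1, COL5A3, COL11A1, COL25A1 and COL26A1. COL19A1 and COL11A1 passed the minimum mean only through SF/SCL, so their direction is not read as a result. Of the 11 lower chains, 7 had their highest value in SF/SCL replicate 3. Of the 25 chains higher in LF/LCL, 21 had theirs in LF/LCL replicate 1. The sign of the difference largely fixes the group that holds the highest library, so nothing is read from which group it was. Both LF/LCL libraries lay on the same side of the SF/SCL mean for 20 of the 25 higher and 8 of the 11 lower chains. Splitting the chains by the sign of the difference favours this agreement, and its share over all genes was not counted. Nothing is therefore read from these counts either.

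By class, the sum of normalized reads was highest in LF/LCL replicate 1 in 6 of 8 classes, the exceptions being the transmembrane chains and COL26A1. The hexagonal network chains, nearly all COL8A1 reads, summed to 4.15 times the SF/SCL mean in LF/LCL replicate 1 and to 1.52 times in LF/LCL replicate 2. In fibrillar chains its sum was 2.54 times the SF/SCL mean, in basement membrane chains 2.57 times and in the beaded filament and anchoring fibril class 2.28 times. The sums of LF/LCL replicate 2 were 1.22, 1.11 and 1.01 times the SF/SCL mean in the fibrillar, basement membrane and beaded filament classes. FACIT chains were less uneven between the LF/LCL libraries, at 1.71 and 1.41 times. Multiplexins were at 1.51 and 0.99 times, and transmembrane chains at 1.13 and 0.73 times, inside or next to the range of the SF/SCL libraries. No test was made between classes, since each class shares the same 5 libraries.

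Chains that wind into 1 helix kept their ratio across libraries in 3 cases. The ratio of COL4A1 to COL4A2 reads was 1.50 and 1.54 in LF/LCL against 1.60, 1.49 and 1.50 in SF/SCL, although COL4A1 itself differed 3.90-fold over the 5 libraries. The ratio of COL6A1 to COL6A2 was 1.93 and 1.87 in LF/LCL against 1.79, 1.90 and 1.86 in SF/SCL, beside a 2.91-fold range of COL6A1. The ratio of COL1A1 to COL1A2 was 0.683 and 0.685 in LF/LCL against 0.666, 0.633 and 0.614 in SF/SCL, beside a 4.86-fold range of COL1A1. These ratios depend on transcript lengths and are compared only between libraries, not read as proportions of the chains. Their SDs on the log2 scale over the 5 libraries were 0.041, 0.041 and 0.069, the smallest 3 of all 351 pairs among the 27 chains with a mean of at least 50, whose median SD was 0.694 and whose range was 0.041 to 1.66. The next closest pairs were COL5A1 with COL16A1 (SD 0.109), COL1A2 with COL3A1 (0.14) and COL15A1 with COL18A1 (0.159), which do not share a helix.

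Other partner chains were less tied. The SD of the log2 ratio was 0.169 for COL6A2 with COL6A3 and 0.176 for COL6A1 with COL6A3. It was 0.339 for COL5A1 with COL5A2, rank 47 of the 351 pairs, where LF/LCL replicate 1 had the lowest ratio, 0.242, against 0.341 to 0.464 in the other libraries. COL4A3 with COL4A4 (0.59, rank 133) and COL4A5 with COL4A6 (0.633, rank 150) were near the middle of all pairs, and the ratio of COL4A5 to COL4A6 ran from 5.34 to 16.9. In the order of RefSeq genes on the NIAB-ARS_B.indTharparkar_mat_pri_1.0 assembly, where 41 of 43 chains were matched, COL4A1 and COL4A2, COL6A1 and COL6A2, COL4A3 and COL4A4, COL4A5 and COL4A6, and COL3A1 and COL5A2 are neighbours. COL19A1 and COL9A1 are also neighbours, though COL9A1 had 0 reads in every library. COL1A1 and COL1A2 are not neighbours. The authors left ambiguous reads out of their counts. Whether the counting used strand is not given in the sources used here, so how reads in overlaps of neighbours were treated is not known.

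**Figure D3:**
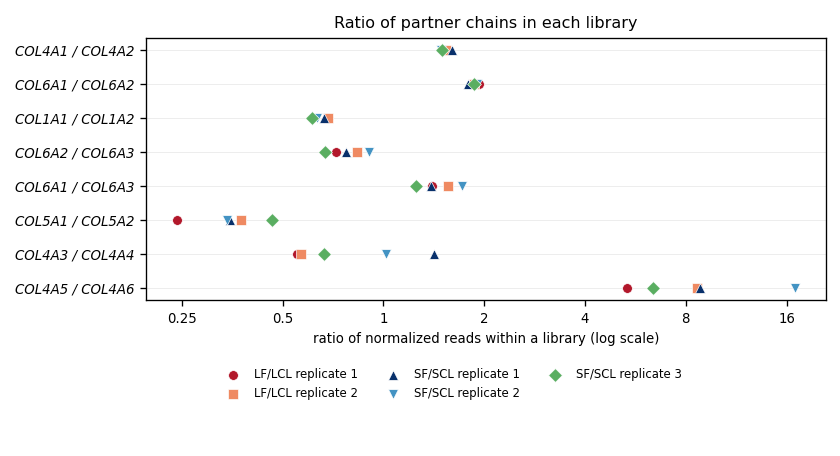
Ratio of normalized reads of partner chains within each library on a log axis, ordered by the SD of the log2 ratio. The points of COL4A1 over COL4A2, COL6A1 over COL6A2 and COL1A1 over COL1A2 nearly coincide, while those of COL4A5 over COL4A6 spread from 5.34 to 16.9.

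The genes that make, fix and clear collagen were read from 7 lists with 72 entries, of which 65 were tested. Higher values in LF/LCL were found for 43 and lower values for 22, with a median of 0.24, and 0 passed the limma adjusted test. At an unadjusted p under 0.05 limma called 6 higher (LOXL1, LAMA4, ADAMTS3, ECM2, SPARC and NID2) and 2 lower (LOXL4 and LEPREL1), of 65 entries, beside 5.64% and 5.86% of all genes tested. LF/LCL replicate 1 was highest for 35 of the 65, beside 21.9% of all genes.

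Enzymes and chaperones that modify and fold the chains were evenly split. Of 19 tested, 9 were higher in LF/LCL and 10 lower, with a median of -0.03. LEPREL1, a prolyl 3-hydroxylase active on type IV collagen, had 387 and 187 in LF/LCL against 475, 409 and 663 in SF/SCL (-0.91 ± 0.36, limma adjusted p = 0.422). SERPINH1, the collagen chaperone HSP47, had 5125 and 4056 in LF/LCL against 4919.8, 4033 and 5692 in SF/SCL. P4HA1, the catalytic subunit of prolyl 4-hydroxylase, had 1165 and 1168 in LF/LCL against 1599, 1264 and 1967 in SF/SCL, a difference of -0.44 ± 0.19 (limma adjusted p = 0.454). The summed reads of this list in LF/LCL replicate 1 were 0.93 times the SF/SCL mean, while those of the chains were 2.22 times.

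Of the 7 tested genes of procollagen processing, which trims the ends of the chains, 4 were higher and 3 lower. ADAMTS3, a protease that removes the amino end, had 139.6 and 79.4 in LF/LCL against 39.5, 57.5 and 24.7 in SF/SCL (1.43 ± 0.47, limma adjusted p = 0.362). The 5 lysyl oxidase genes, which cross-link collagen and elastin, were split into 3 higher and 2 lower. LOXL1 had 841 and 611 in LF/LCL against 341, 392 and 314 in SF/SCL, and both LF/LCL libraries stood well above the rest. Its difference was 1.04 ± 0.19 (limma adjusted p = 0.205, DESeq2 adjusted p = 0.000845). LOXL4 ran the other way, with 204 and 347 in LF/LCL against 469, 705 and 513 in SF/SCL (-1.05 ± 0.28, limma adjusted p = 0.306).

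Proteins that bind fibrils or basement membranes were read next. Of 12 fibril-associated proteoglycans and glycoproteins, 10 were higher in LF/LCL and 2 lower, with a median of 0.40. The summed reads of this list were 2.06 times the SF/SCL mean in LF/LCL replicate 1 and 1.04 times in LF/LCL replicate 2. SPARC, a collagen-binding protein of the matrix, had 22837 and 11913 in LF/LCL against 11009, 4477 and 7248 in SF/SCL, without overlap (1.22 ± 0.44, limma adjusted p = 0.397). Of 10 tested entries for basement membrane partners, 8 were higher and 2 lower, with sums of 1.26 and 0.98 times the SF/SCL mean in LF/LCL replicates 1 and 2. LAMA4, a laminin chain of vessels and muscle, had 1528 and 1223 in LF/LCL against 759, 525 and 786 in SF/SCL (1.01 ± 0.21, limma adjusted p = 0.246, DESeq2 adjusted p = 0.00489). NID1, the nidogen that links laminin to type IV collagen, was lower in value, at 646 and 260.4 in LF/LCL against 921, 418 and 1009.9 in SF/SCL (-0.83 ± 0.53). LAMC1 was listed as 2 separate genes in the table and counted as 2 entries.

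Of 8 tested collagen receptors and uptake genes, 6 were higher and 2 lower, none at an unadjusted p under 0.05. DDR1, a receptor kinase activated by collagen, was steady at 14445 to 16483 in the 5 libraries. Of 4 tested collagen-cleaving enzymes 3 were higher and 1 lower, and in each LF/LCL replicate 1 held the highest value. The interstitial collagenases MMP8 and MMP13 had 0 reads in all 5 libraries, and MMP1 had reads only in SF/SCL replicate 2, at a value of 1.55. A count of 0 allows up to 3 reads in each library.

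Markers of other cell types were read beside the chains. In tissue of the full wall, fewer cells of a type and less RNA per cell cannot be told apart. Summed reads of 12 stromal fibroblast markers, collagens left out, were 55656 and 26676 in LF/LCL against 33450.0, 20849 and 41370.3 in SF/SCL, with 11 of 12 higher in LF/LCL. Their order of libraries, with LF/LCL replicate 1 highest and SF/SCL replicate 2 lowest, was that of the fibrillar sum at both ends. Smooth muscle markers summed to 114436 and 57938 in LF/LCL against 35801, 39307 and 14931 in SF/SCL. All 11 of them were higher in LF/LCL, 8 at an unadjusted p under 0.05 where 5.64% of all genes were called higher. LF/LCL replicate 1 was highest for each, beside 21.9% of all genes. MYH11, the myosin heavy chain of smooth muscle, had 29099 and 12199.8 in LF/LCL against 6959.7, 11185 and 4020.2 in SF/SCL.

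Epithelial markers had a different order. The 12 ciliated cell markers summed to 38538.5 and 44382 in LF/LCL against 55922, 60003 and 58219 in SF/SCL, all 12 lower in LF/LCL without overlap, beside 15.1% of all genes, and 11 at an unadjusted p under 0.05, beside 5.86%. Secretory epithelial markers summed to 183299 and 156558 in LF/LCL against 156548, 183486 and 173444 in SF/SCL, with 6 of 9 higher in LF/LCL. OVGP1 made up most of these sums, at 142113 and 117179 in LF/LCL against 122187, 147247 and 137421.5 in SF/SCL. Limma called 4 of the 9 higher at an unadjusted p under 0.05, beside 5.64% of all genes. Both LF/LCL libraries were above all SF/SCL libraries for 5 of the 9, beside 15.0%. Mesothelial markers summed to 9414 in LF/LCL replicate 1 and to 16386 to 21590.4 in the other libraries. Pericyte and endothelial markers were highest in LF/LCL replicate 1 and next in SF/SCL replicate 3. Relative to the SF/SCL mean they were at 1.56 and 1.53 in LF/LCL replicate 1, and both at 0.83 in LF/LCL replicate 2. Immune cell markers summed to 2546 and 3332 in LF/LCL against 2743, 1571 and 2727 in SF/SCL, and Schwann cell markers to 33385 and 40693 against 24679, 19225 and 15116. Of 12 immune cell markers, 9 were higher in LF/LCL and 3 lower. Limma called 5 of them higher at an unadjusted p under 0.05, beside 5.64% of all genes. Without overlap, 6 of the 12 were higher and 1 lower, beside 15.0% and 15.1% of all genes. Blood markers summed to 528 in LF/LCL replicate 1 and to 32.2 to 256 in the other libraries. FOXJ1, the regulator of motile cilia that marks ciliated oviduct cells, was present in every library, at 8481 and 9373 in LF/LCL against 11197, 12698 and 10647 in SF/SCL. The part of these cell types in the values of the chains was not tested.

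**Figure D4:**
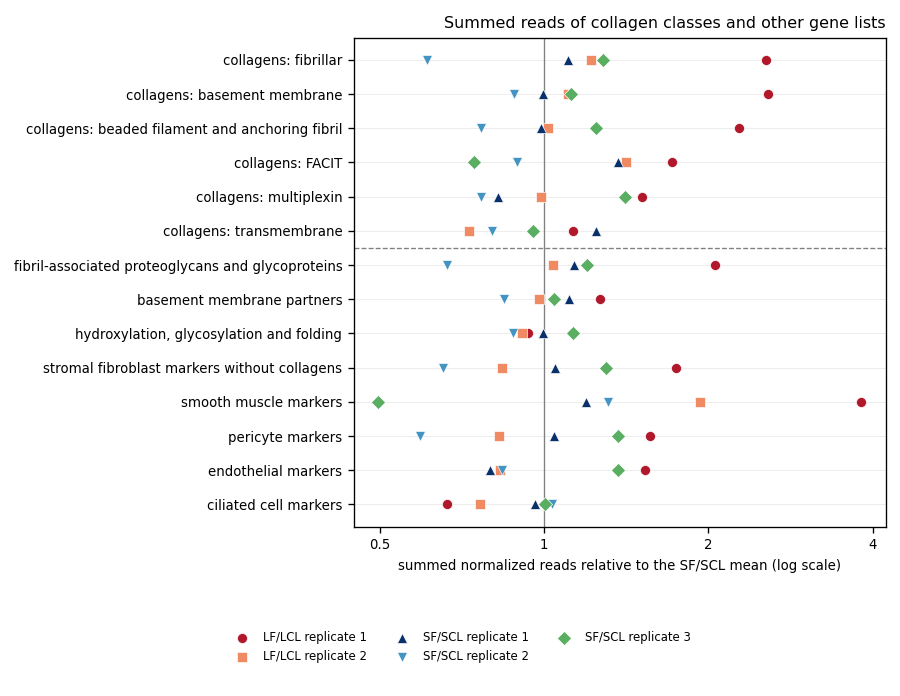
Summed normalized reads of 6 collagen classes (above the dashed line) and of other gene lists (below it) in each library, relative to the SF/SCL mean, on a log axis. LF/LCL replicate 1 is 2.57 times the SF/SCL mean in basement membrane chains, 3.81 times in smooth muscle markers and 0.66 times in ciliated cell markers, while hydroxylation and folding genes lie near 1 in every library.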

How the data were processed

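PolyA libraries of ampulla tissue were sequenced as read pairs. The authors cleaned reads with seqyClean, aligned them to the masked UMD 3.1 cattle assembly (TopHat2 2.0.8, Bowtie2 2.1.0 per the labels) and counted uniquely and unambiguously mapped reads per Ensembl gene (HTSeq 0.5.4p2). The deposited values are a normalized signal, the read count divided by a DESeq 1.12.1 size factor per library. Whole reads were recovered for 100% of nonzero values (tolerance 0.001 plus a millionth of the value).

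The test was limma 3.58.1 (lmFit, eBayes with trend and robust) in R 4.3.3 on log2(value + 1), for genes with a mean over 5, two-sided, Benjamini-Hochberg adjusted over all genes tested, without covariates. Alternatives were edgeR 4.0.16 and DESeq2 1.42.0 on recovered reads, other pseudocounts and filters, TMM scaling and leaving out each library. The scripts were tested on simulated data. Replicates are different cows, numbered in accession order. Limits from counts of 0 cover counting error only.

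The chains and gene lists were chosen with earlier results of these data known. By the naming rule the text gives the 3 chains of highest mean in each class (all chains with a mean of at least 50 in small classes), up to 6 per direction with the smallest p, those with no overlap against the family, and helix partners. Other tested chains are also given, and a few list genes (SERPINH1, NID1, DDR1, MYH11) were added after their values were seen. Classes follow textbook groups.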

Additional observations from a re-analysis of the deposited data

How the results depend on the processing

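After adjustment 0 chains were called by limma under each pseudocount, filter and scaling tried and with any 1 library left out, and by edgeR, whereas DESeq2 called 4. At an unadjusted p under 0.05 limma called 6 chains, edgeR 10 (11.6% of all genes) and DESeq2 14 (12.7%), and limma called between 4 and 17 with 1 library left out, 4 without LF/LCL replicate 1 (7.8% of all genes) and 17 without LF/LCL replicate 2 (9.87%). With all 5 libraries, the 6 chains called by limma were 3 higher and 3 lower in LF/LCL. The same test called 5.64% of all genes higher and 5.86% lower. The median difference of 0.53 was 0.12 at its lowest, when LF/LCL replicate 1 was left out. It was 0.90 at its highest, when LF/LCL replicate 2 was left out. The class medians ranged from 0.35 to 0.90 for fibrillar, from -0.20 to 1.60 for basement membrane, from 0.001 to 1.24 for beaded filament and anchoring fibril, from 0.36 to 0.59 for FACIT, from 0.04 to 0.66 for multiplexin and from -0.53 to 0.41 for transmembrane chains with 1 library left out. The log2 ratio of summed collagen reads was 0.76 and ranged from 0.22 (without LF/LCL replicate 1) to 1.15. Of 332 recomputed differences of the named chains 324 kept their direction and their side of the threshold, 4 passed it with DESeq2 (COL4A1 at 1.305, COL4A2 at 1.325, COL27A1 at -1.31 and COL19A1 at -4.78) and 4 changed sign, all with a library left out: COL13A1 (-1.15 without LF/LCL replicate 1 and -0.22 without SF/SCL replicate 2), COL23A1 (-0.74) and COL26A1 (0.87). Over all omissions these 3 chains ranged from -1.15 to 1.78, from -0.74 to 1.27 and from -3.41 to 0.87. The causes were not tested. DESeq2 without 1 library, chosen after seeing the data, called 0 chains of 264 genes without LF/LCL replicate 1, 11 of 342 without LF/LCL replicate 2, 5 of 399 without SF/SCL replicate 1, 2 of 355 without SF/SCL replicate 2 (COL19A1 and COL27A1) and 0 of 289 without SF/SCL replicate 3. Where 1 LF/LCL library was left, it was assumed to vary like the SF/SCL libraries. Depth limits the 7 chains with 0 to 18 reads, of which 6 were tested only without the minimum. No paired analysis was possible because each library came from a different cow and the numbers were given in accession order.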
